A study of Homo sapiens with 72 samples.

Results

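PEO1 is an established HGSOC line (high-grade serous carcinoma of the ovary) with a defect in BRCA2, a gene of homologous recombination. In the study, PEO1 cells were given 8.5 µM rucaparib, a fluorescent inhibitor of the PARP enzymes, or DMSO as Vehicle, for 2 h or 24 h. Treated cells were then sorted on drug fluorescence. Ruc_High cells were the brightest 20% and Ruc_Low cells the dimmest 20%, while Ruc_Total (treated) and Vehicle cells were not sorted. The libraries described here are those of Ruc_High cells, chosen by the labels for the gate, the treatment and the time: 9 at 2 h and 9 at 24 h, 18 of the 72 libraries of the series. The 3 libraries that share a replicate number were added together, which left 3 samples at 24 h against 3 at 2 h, and the comparison asks which transcripts of the high-drug cells changed between the early and the late time point. Both sides passed through the same sort, and both held the same concentration of drug in the medium. They differed in the length of exposure and also in 22 h of culture, which the Vehicle samples shared without the drug. The gate was set by rank at each time point, so the brightest cells at 2 h and at 24 h need not have held the same amount of drug, and all cells came from a single line.

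PARP enzymes sense breaks in DNA and help to repair them. PARP inhibitors trap these enzymes on DNA, which stalls replication forks, and cells that lack homologous recombination repair the resulting breaks poorly. Cells with damaged or unfinished DNA are held back from mitosis by checkpoints. Many genes that drive mitosis are transcribed late in the cell cycle, in G2 and M phase, from promoters that carry a CHR element (cell cycle genes homology region) and CCAAT boxes, so their RNA follows both the share of cells in those phases and the activity of these promoters. Fewer cells in a phase and less RNA per cell cannot be told apart in RNA from bulk samples such as these.

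The 18 Ruc_High libraries held 29040832 to 35227902 estimated reads each, and their sums held 92860647 to 104451224. The markers of the cell line were present: the summed level of PAX8, WT1, MUC16, KRT7, KRT8, KRT18 and EPCAM was 12979 to 14226 CPM (TMM-normalised CPM, from counts scaled to a common library size) at 2 h and 11918 to 13508 CPM at 24 h. The 5 immune markers summed to at most 6.38 CPM, nearly all from CD14, with PTPRC at 0.0207 CPM or less and MS4A1 at 0. The 4 fibroblast markers summed to 7.69 to 14.5 CPM, with COL1A1 at 7.69 to 14.5 CPM, DCN and LUM at most at 0.0207 and 0.0113 CPM and PDGFRA at 0. The 3 endothelial markers summed to 13.9 to 21 CPM, with CDH5 at 13.6 to 20.5 CPM and PECAM1 at most at 0.0543 CPM. The mean length of transcripts, weighted by reads, varied between libraries. In the summed samples it was 2736, 2930 and 3106 bases in replicates 1, 2 and 3 at 2 h and 3037, 3005 and 3142 bases at 24 h, so replicate 1 at 2 h stood lowest. Counts of genes without the libraries under 2800 bases, and with this length as a covariate, are given beside the main ones.

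Between 2 h and 24 h, 24 genes rose and 21 fell in Ruc_High cells, out of 20136 tested (0.119% and 0.104%). These calls are from edgeR's quasi-likelihood test on all 24 summed samples of the study, with a threshold of 0.05 on the Benjamini-Hochberg adjusted p. The mitotic regulators PLK1, CCNB1 and CDC20, the helicase PIF1 and INSIG1, a feedback regulator of cholesterol synthesis, were lower at 24 h. The collagenase MMP1, the protease inhibitor SERPINB2 and the stress gene CHAC1 were higher. All 45 genes changed in the same direction in all 3 replicate numbers, and their levels at 2 h and 24 h did not overlap. Both traits follow in part from choosing the genes by these same values. Over all 20136 genes, 4611 rose and 4391 fell in all 3 replicate numbers, and 8.03% were higher and 7.11% lower without overlap. The median log2 fold change over all genes was -0.002.

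The replicate numbers of the labels are shared by all groups. When the replicate number was added to the model (the replicate block), 312 genes were higher and 254 lower (1.55% and 1.26% of 20136), and all 45 genes stayed among them. Leaving out the libraries under 2800 bases gave 30 higher and 48 lower, or 352 and 461 with the block. With this length as a covariate beside the block, 399 were higher and 385 lower. On another scale, log2(TPM + 1) tested with limma, 26 genes were higher and 2 lower. That fit differs from the others in both the test and the unit. A fit of the 6 Ruc_High samples alone, which takes the spread from these samples only, called no gene in either direction from edgeR (1528 of 18385 genes at an unadjusted p under 0.05). DESeq2 on all samples called 171 higher and 177 lower. Leaving out replicates 1, 2 and 3 in turn gave 4, 0 and 1 higher and 13, 0 and 0 lower, or 78, 0 and 4 higher and 101, 2 and 9 lower with the block. Genes named below that passed only with the block, and list members given with values that did not pass, were chosen after their values were seen. Of those that passed only with the block, TPX2, CCNF, NUF2, TIMP3, BCL2, ABCC3, CYP51A1 and APLF did not pass with transcript length as a covariate beside it (adjusted p of 0.0513 to 0.0634 from edgeR).

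**Figure D1:**
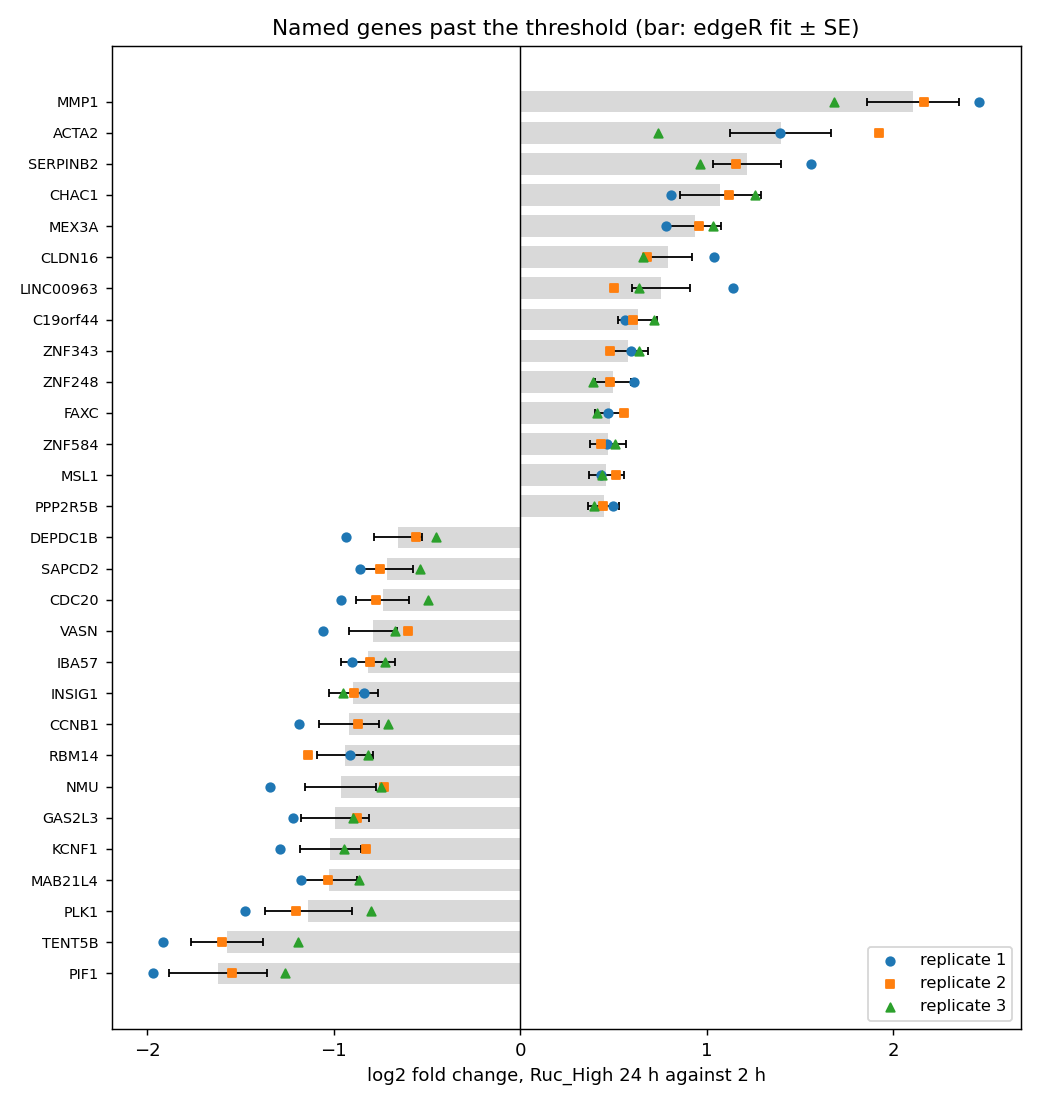
Log2 fold change at 24 h against 2 h in Ruc_High cells (horizontal axis) for the 29 named genes past the threshold (vertical axis). Grey bars are the edgeR fit with its standard error and symbols the difference within each replicate number, computed with a prior count of 2. Bars run from 2.11 for MMP1 to -1.62 for PIF1. Every symbol lies on the same side of 0 as its bar, which the rule for names required of all but MMP1 and ACTA2.

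Of the 21 genes that fell, PLK1, CCNB1 and CDC20 are on the lists of mitotic genes. PLK1 (polo-like kinase 1, which drives mitotic entry and spindle assembly; chromosome 16, 23677656 to 23690367 in GRCh38) stood at 137, 138 and 134 CPM in replicates 1, 2 and 3 at 2 h and at 49.3, 60 and 77 CPM at 24 h. The 2 h values lay within a few CPM of each other, and all 3 values at 24 h were far below them, with replicate 3 the least changed. The log2 fold change was -1.14 ± 0.23 (SE, n = 3 and 3; adjusted p = 0.0459 from edgeR, 4.02e-04 with the block). CCNB1, cyclin B1 (chromosome 5, 69167010 to 69178245), the partner of the kinase CDK1 at mitotic entry, went from 295, 284 and 255 to 130, 155 and 156 CPM, a log2 fold change of -0.92 ± 0.16 (adjusted p = 0.0187 from edgeR). CDC20 (chromosome 1, 43358955 to 43363203), which activates the anaphase-promoting complex so that sister chromatids can part, went from 333, 309 and 302 to 171, 181 and 214 CPM, or -0.74 ± 0.14 (adjusted p = 0.0345 from edgeR). PIF1, a DNA helicase (chromosome 15, 64815632 to 64825668), had the largest fall of all named genes. It stood at 26, 22.1 and 15.9 CPM at 2 h and at 6.61, 7.55 and 6.61 CPM at 24 h, or -1.62 ± 0.26 (adjusted p = 0.0107 from edgeR). Its early samples were spread out and its late samples close together.

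The promoters of these 4 genes are shown because the CHR element and the CCAAT box are the letters that such genes are known to share. The 150 bases before the RefSeq start site are given 5′ to 3′ on the strand of the gene (GRCh38.p14), with capitals for TTTGAA or TTCGAA (CHR) and CCAAT, searched on both strands, so that TTCAAA and ATTGG also count.
PLK1, chr16:23678739-23678888, + strand: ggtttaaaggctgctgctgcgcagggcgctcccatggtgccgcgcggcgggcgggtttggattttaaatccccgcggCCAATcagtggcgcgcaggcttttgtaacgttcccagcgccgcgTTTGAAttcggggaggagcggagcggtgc
CDC20, chr1:43358831-43358980, + strand: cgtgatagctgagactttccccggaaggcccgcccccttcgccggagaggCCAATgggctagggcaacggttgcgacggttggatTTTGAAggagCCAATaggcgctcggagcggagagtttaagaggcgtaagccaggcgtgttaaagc
PIF1, chr15:64825648-64825797, - strand: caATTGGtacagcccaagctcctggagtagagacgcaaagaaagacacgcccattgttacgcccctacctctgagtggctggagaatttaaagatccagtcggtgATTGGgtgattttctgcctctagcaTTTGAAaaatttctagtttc
CCNB1, chr5:69167000-69167149, + strand: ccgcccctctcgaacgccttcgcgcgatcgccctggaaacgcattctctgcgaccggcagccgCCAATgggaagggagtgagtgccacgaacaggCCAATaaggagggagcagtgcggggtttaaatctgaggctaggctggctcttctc
PLK1, CDC20 and PIF1 held TTTGAA 29, 65 and 20 bases before the start site, and CCNB1 held a pair of CCAAT boxes, 87 and 55 bases before it, and no CHR letters in this window. Over the 250 bases before the start, CHR letters were found in 34 of the 67 promoters matched for 77 mitotic genes (50.7%), against 14.6% of all 27305 promoters, and CCAAT in 46 of 67 (68.7%), against 33% of all. Of the 19 promoters matched for the 21 genes that fell, 6 held CHR letters and 12 CCAAT, and of the 15 matched for the 24 genes that rose, 1 and 5. A match of letters is a description and does not show that a factor binds there.

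Most mitotic genes had a fitted level below that at 2 h. Of 77 genes on 3 lists (CDK1 with cyclins and regulators, mitotic kinases with kinetochore genes, and kinesins with cytokinesis genes), 73 had a log2 fold change below 0, with a median of -0.40 against -0.002 over all genes. Of these 77, 3 fell and none rose (CCNB1, CDC20 and PLK1), and with the block 29 fell and none rose, against 1.26% of all genes lower. The 4 genes above 0 were CDC25A, LIN9, MASTL and CENPI, none of which passed with or without the block. When replicates 1, 2 and 3 were left out in turn, 2, 0 and 0 of the 77 passed, and with the block 14, 0 and 2. The median stayed below 0 under each of 17 alternatives (from -0.49 to -0.22), the last on the log2(TPM + 1) scale. Within replicates the median was -0.49, -0.58 and -0.24 in replicates 1, 2 and 3, so replicate 3 changed least.

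The mitotic genes that fell with the block included cyclins, kinases, kinetochore genes and motors. AURKA, the aurora A kinase of the spindle poles, was at 91.4, 97.9 and 94.2 CPM at 2 h and at 40.1, 49 and 58.2 CPM at 24 h. Its log2 fold change of -0.94 ± 0.25 did not pass without the block (adjusted p = 0.144) and passed with it (0.00575, both from edgeR). CCNB2 (-0.76), CCNA2 (-0.64) and CCNF (-0.57), further cyclins of late cell cycle, and CDC25C (-0.83), the phosphatase that activates CDK1, also passed with the block. So did the kinetochore and centromere genes CENPA (-0.74), CENPE (-0.74), CENPF (-0.63), NDC80 (-0.71), NUF2 (-0.59) and SGO2 (-0.70), the cohesin protector of sister chromatids. TOP2A, the topoisomerase that untangles chromosomes, went from 326, 343 and 318 to 156, 189 and 235 CPM (-0.77 ± 0.21, adjusted p = 0.162 from edgeR, 0.00969 with the block). TPX2, which targets AURKA to the spindle, had the smaller change of -0.42 ± 0.19 (adjusted p = 0.491 from edgeR, 0.0426 with the block). Securin, PTTG1, the inhibitor of chromatid separation, had a log2 fold change of -1.30 and passed with the block, and its early levels were widely spread, at 104, 63.6 and 46.7 CPM against 26, 34.4 and 26.6 CPM late.

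Genes of motor proteins had fold changes of the same sign. KIF20A, the kinesin of the central spindle and cytokinesis (chromosome 5, 138178719 to 138187715), was at 61.8, 82.1 and 89.7 CPM at 2 h and at 23.2, 30.1 and 43.9 CPM at 24 h, a log2 fold change of -1.26 ± 0.37 (adjusted p = 0.188 from edgeR, 4.02e-04 with the block). All 27 members of the kinesin and cytokinesis list lay below 0, none passed without the block and 9 passed with it, among them KIF2C (-0.72), KIF14 (-0.67), KIF23 (-0.54), KIF4A (-0.50) and PRC1 (-0.49). GAS2L3, a cytoskeletal linker needed late in division, is on none of the lists and fell from 17.9, 16.1 and 17.9 to 7.67, 8.77 and 9.62 CPM (-0.995 ± 0.183, adjusted p = 0.0247 from edgeR). DEPDC1B (-0.66 ± 0.13), which acts in the loss of adhesion before mitosis, and SAPCD2 (-0.72 ± 0.14), which helps to orient the spindle, also fell without the block.

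Vehicle cells gave the change over the same 22 h of culture without the drug and without the sort. There the 3 mitotic lists had a median of 0.11 and 25 of 77 genes below 0, against -0.40 and 73 in Ruc_High cells. PLK1 was at 123, 172 and 188 CPM in Vehicle at 2 h and at 158, 155 and 189 CPM at 24 h, so the times overlapped. CCNB1 was at 282, 427 and 388 CPM against 345, 341 and 370 CPM, and KIF20A at 50.3, 113 and 134 against 106, 125 and 164 CPM. In each of these genes the lowest Vehicle sample at 2 h was replicate 1, whose mean transcript length was also the lowest of that group, at 2729 bases against 2747 and 3078. A link between these levels and length was not tested.

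The change over time in Ruc_High cells was tested against that in Vehicle, a contrast of 2 differences in the same fit. No gene passed (0% of 20136, with 759 genes at an unadjusted p under 0.05 from edgeR, and 5 higher and 2 lower with DESeq2). With the replicate block, 7 genes passed (0.0348%). KIF20A (-1.79 ± 0.22, adjusted p = 0.00329), PLK1 (-1.25 ± 0.20, 0.0285), DEPDC1 (-1.24 ± 0.20, 0.0304), GAS2L3 (-1.14 ± 0.18, 0.0285) and the condensin subunit NCAPD2 (-0.74 ± 0.13, 0.0496) changed more towards lower levels in Ruc_High than in Vehicle cells. MMP1 (2.18 ± 0.33, 0.0285) and SERPINB2 (1.37 ± 0.23, 0.0496) changed more towards higher levels. Within replicates 1, 2 and 3, the difference for KIF20A was -2.49, -1.59 and -1.32 and that for PLK1 was -1.83, -1.06 and -0.80, so replicate 1 gave the largest one. With the block and without replicate 1, PLK1 had a difference of -0.93 ± 0.14 and KIF20A one of -1.46 ± 0.22 (adjusted p = 0.148 for both from edgeR). In that fit 2 genes passed, both higher and neither among the 7, whose adjusted p were 0.148 to 0.614 from edgeR. Leaving out replicate 2 or 3 left no gene. Without the libraries under 2800 bases, of which 4 were Vehicle at 2 h and 3 were Ruc_High at 2 h, 67 genes passed with the block (13 higher, 54 lower). All 7 were among them. Of the 77 mitotic genes tested in that fit, 12 were lower and 0 higher, against 54 lower and 13 higher of all 18850 genes tested.

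**Figure D2:**
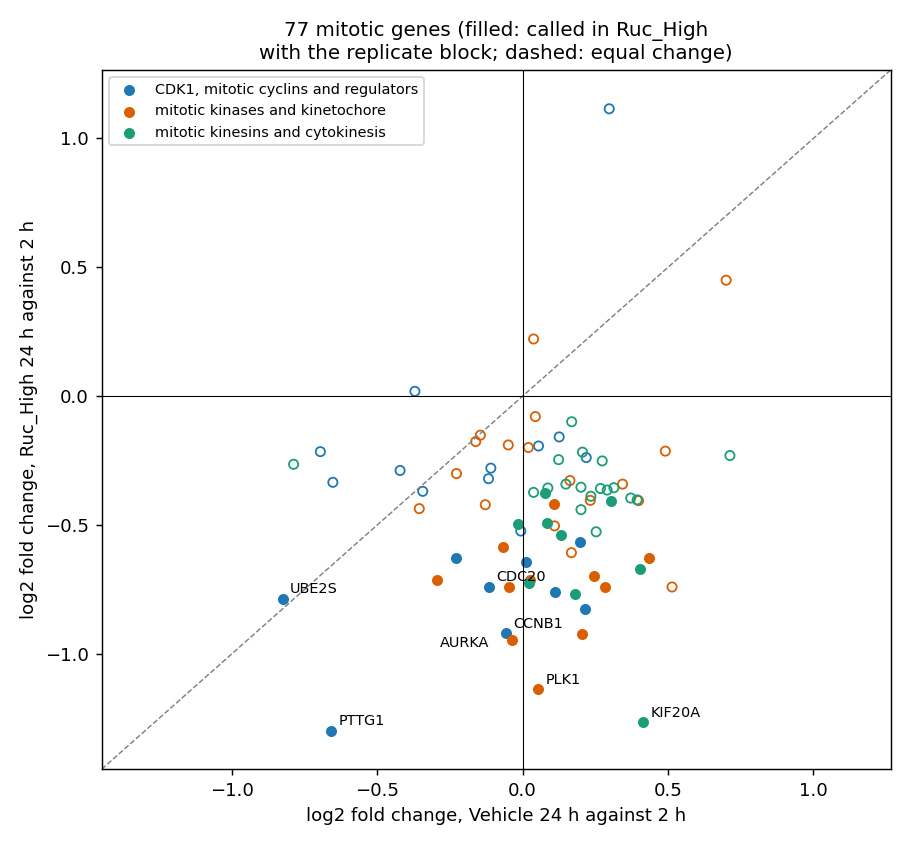
Log2 fold change at 24 h against 2 h of the 77 mitotic genes in Vehicle (horizontal axis) and Ruc_High cells (vertical axis), with filled symbols for genes called in Ruc_High cells with the replicate block. Most points lie below the dashed line of equal change, and the medians were 0.11 in Vehicle and -0.40 in Ruc_High.

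Other parts of the cell cycle and of the damage response showed no call without the block. The DNA replication and S phase list had 0 of 42 genes called with or without the block and a median of -0.12, against -0.21 in Vehicle. Homologous recombination, Fanconi and checkpoint genes had 0 of 36 called and a median of 0.06. Base excision and single-strand break repair had 0 of 19 called without the block and a median of -0.10. On that list 4 genes were at an unadjusted p under 0.05 from edgeR, and DESeq2 called 1 lower. With the block CHD1L was lower (-0.75 ± 0.17, adjusted p = 0.0655, or 0.0235 with the block, from edgeR). APLF was higher (0.51 ± 0.18, adjusted p = 0.331, or 0.0342 with the block, from edgeR). In Vehicle their values were -0.01 and 0.195. Of the 26 p53 targets tested, none passed without the block, and SESN2 was higher with it. CDKN1A, the CDK inhibitor p21, had a log2 fold change of -0.06 in Ruc_High and -1.05 in Vehicle cells, with GADD45A at -0.07 and -0.58. Of 10 CDK inhibitors and growth arrest genes none passed with or without the block. At an unadjusted p under 0.05 from edgeR, which 9.14% of all genes reached, 4 genes of the replication list, 2 of the recombination list, 4 p53 targets and 3 of the growth arrest list passed, and DESeq2 called 1, 0, 1 and 1 of them at an adjusted p under 0.05.

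Of the named genes, MMP1 and SERPINB2 were among those that rose most. MMP1, a collagenase that cleaves fibrillar collagen (chromosome 11, 102789920 to 102798160), was at 1.01, 0.912 and 1.43 CPM at 2 h and at 5.66, 4.17 and 4.62 CPM at 24 h, a log2 fold change of 2.11 ± 0.25 (adjusted p = 0.00115 from edgeR). Its level remained low among all genes, but the early and late samples were well apart. In Vehicle it was at 0.907, 1.19 and 0.946 CPM at 2 h and at 1.03, 1.06 and 0.835 CPM at 24 h. SERPINB2 encodes plasminogen activator inhibitor type 2 (chromosome 18, 63871692 to 63903890). It rose from 13.1, 16.9 and 17.9 to 38.5, 37.8 and 34.9 CPM in Ruc_High cells (1.22 ± 0.18, adjusted p = 0.00688 from edgeR). In Vehicle it was at 12.4, 17.6 and 15 CPM at 2 h and at 13.6, 15.1 and 11.7 CPM at 24 h. In Ruc_High cells both genes overlapped the Vehicle samples at 2 h and lay above all of them at 24 h. Both genes also rose in the other treated groups, MMP1 by 1.815 in Ruc_Low and 2.61 in Ruc_Total, and SERPINB2 by 1.578 and 1.972.

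MMP1 and SERPINB2 are on the list of plasminogen activators and metalloproteinases. Of its 17 genes tested, 2 rose and 15 did not pass, and the median was -0.02. With the block MMP10, another secreted metalloproteinase, was also higher (1.46 ± 0.40 without the block, adjusted p = 0.153 and 0.0178 with it, from edgeR), at levels under 1 CPM, and TIMP3, an inhibitor of these enzymes, was lower (-0.40). PLAU and PLAUR, the urokinase and its receptor, had values of -0.03 and -0.38, neither of them called.

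CHAC1, an enzyme that breaks down glutathione and a target of the integrated stress response, was at 10.8, 11.3 and 10.3 CPM at 2 h and at 18.9, 24.5 and 24.7 CPM at 24 h, a log2 fold change of 1.07 ± 0.22 (adjusted p = 0.0441 from edgeR). It was the only one of 17 genes of that response to pass without the block. With the block SESN2 (0.81) and NUPR1 (0.53) also passed, and SLC3A2 (-0.38), a subunit of amino acid transporters, passed in the other direction. The transcription factors of the pathway were not called, with ATF4 at -0.03, DDIT3 at 0.53 and ATF3 at 0.08. The median of the list was 0.20 in Ruc_High cells and -0.15 in Vehicle, and the change of CHAC1 was not called as different from that in Vehicle (0.77 ± 0.31, adjusted p = 0.957, or 0.348 with the block, from edgeR). CHAC1 also rose in the other treated groups, by 1.675 ± 0.222 in Ruc_Low and 2.139 ± 0.225 in Ruc_Total (adjusted p = 0.0014 and 7.02e-05 from edgeR). The difference between Ruc_High and either of them was not called.

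**Figure D3:**
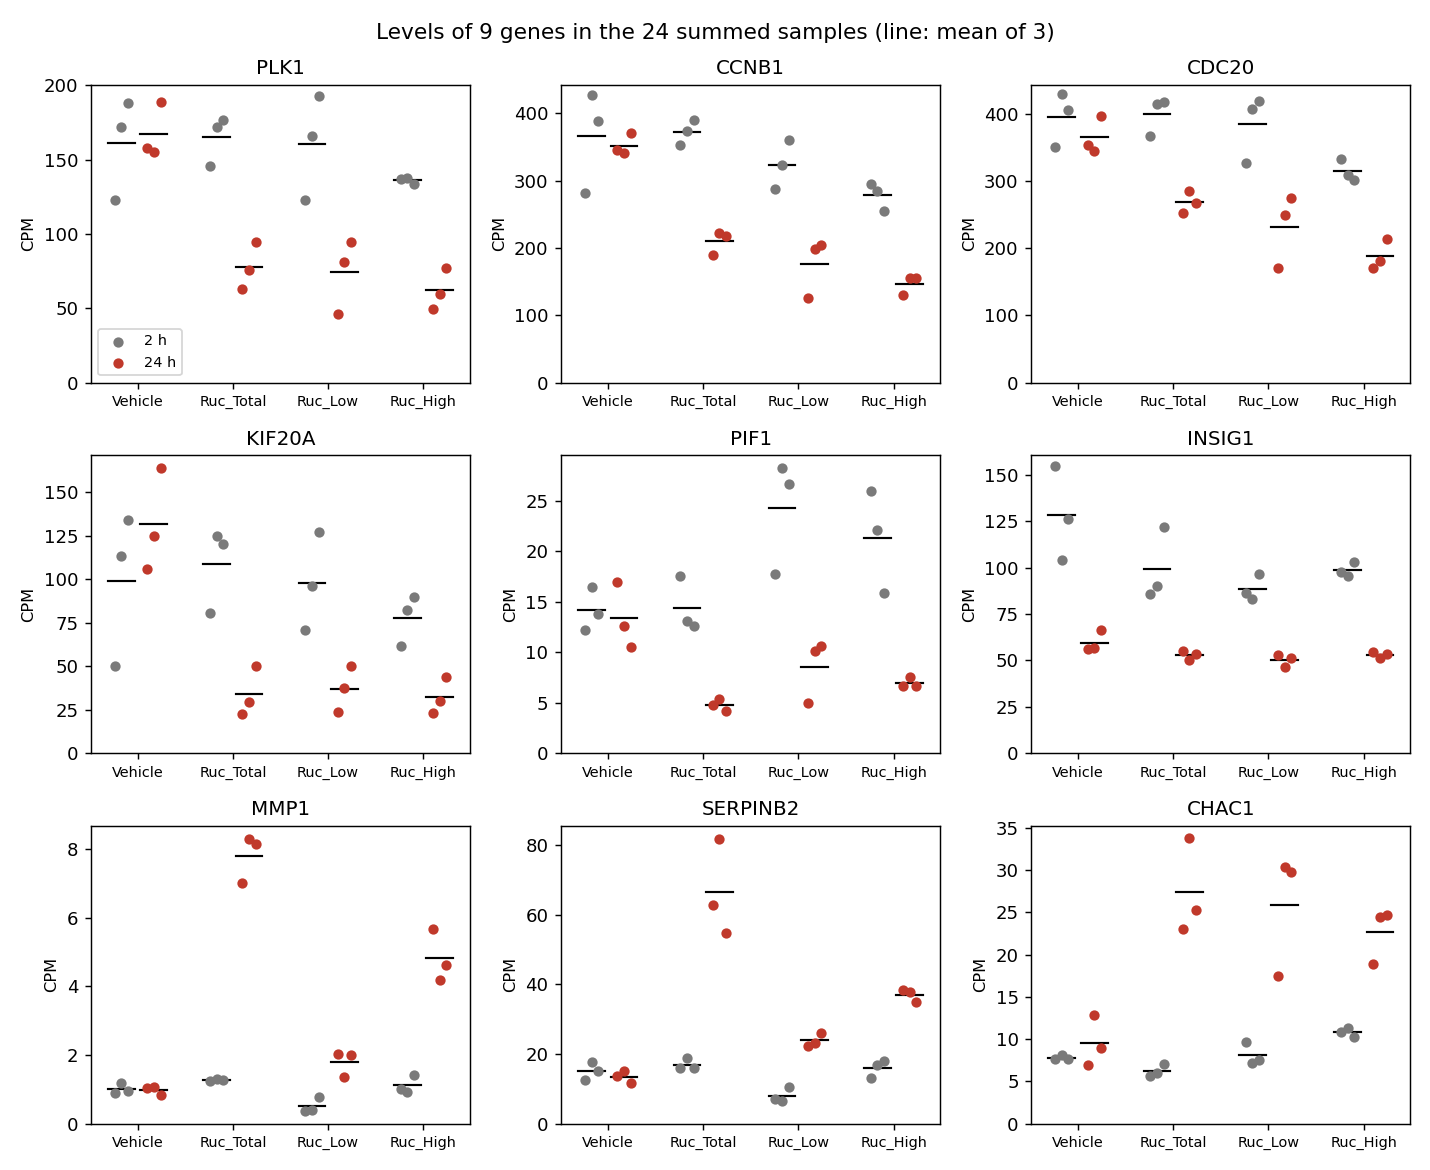
Levels in CPM of 9 genes (vertical axes, from 0) in the 3 summed samples of each group (horizontal axes) at 2 h in grey and 24 h in red, with black lines for the means. In Ruc_High cells the times do not overlap in any of the 9 genes, while in Vehicle PLK1, CCNB1, MMP1 and SERPINB2 overlap and INSIG1 does not.

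Other genes that rose have diverse roles. CLDN16, a claudin of tight junctions, was the most abundant of them apart from MSL1 and rose from 59.2, 67.9 and 71.3 to 121, 109 and 113 CPM (0.79 ± 0.13, adjusted p = 0.0107 from edgeR). MEX3A, an RNA-binding protein, rose from 6.75, 7.31 and 7.46 to 11.6, 14.2 and 15.3 CPM (0.93 ± 0.14). MSL1, a scaffold of the acetyltransferase complex for histone H4 (0.46), PPP2R5B, a regulatory subunit of the phosphatase PP2A (0.45), and the zinc finger genes ZNF343 (0.58), ZNF248 (0.50) and ZNF584 (0.47) rose by less. FAXC (0.48), C19orf44 (0.63) and the noncoding RNA LINC00963 (0.75) also rose. ACTA2, smooth muscle actin, rose from 0.378, 0.327 and 0.5 to 1.03, 1.3 and 0.847 CPM (1.40 ± 0.27, adjusted p = 0.0331 from edgeR), but at this low level its reads may be shared with other actin genes. It is on the list of fibroblast markers, of which 1 of 6 tested rose with a median of -0.08, and of the fibroblast markers given above COL1A1 was present at 7.69 to 14.5 CPM while DCN, LUM and PDGFRA were at or near 0. The 10 genes that rose outside the rule for names are given here after their values were seen: IQCN, ZNF469, HOXC6, TOB2P1, ATP6V0E2-AS1, C17orf97, RHEBL1, BCL11A, AC114271.1 and AC009237.3, with log2 fold changes of 0.49 to 1.33. TOB2P1 is a pseudogene and ATP6V0E2-AS1 an antisense RNA, and reads of both could come from the partner gene. In Vehicle, 21 of the 24 genes that rose had a log2 fold change above 0 and 3 below. With the block 7 of them passed there: IQCN (0.947), BCL11A (0.865), HOXC6 (0.71), MEX3A (0.491), ZNF248 (0.465), ZNF343 (0.337) and C19orf44 (0.29). The difference between Ruc_High and Vehicle was not called for any of these 7.

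Genes of cholesterol synthesis had medians below 0 in both Ruc_High and Vehicle cells. INSIG1, which holds the cholesterol sensor complex in the endoplasmic reticulum and is itself switched on when sterols are low, fell from 97.5, 95.2 and 103 to 54.5, 51.2 and 53.3 CPM (-0.90 ± 0.13, adjusted p = 0.00688 from edgeR). In Vehicle its levels were 155, 104 and 126 CPM at 2 h and 55.9, 56.5 and 66.2 CPM at 24 h, so that they too did not overlap. Of 23 genes tested, all lay below 0, with a median of -0.34 in Ruc_High and -0.31 in Vehicle cells. INSIG1 passed without the block, and 7 genes with it. Among them CYP51A1 (-0.39), MSMO1 (-0.38), SQLE (-0.28) and HSD17B7 (-0.39) are enzymes of the pathway. The difference between the change of INSIG1 in Ruc_High and Vehicle cells was 0.21 ± 0.19 (adjusted p = 0.957 from edgeR). The list's median was below 0 under each of the 17 alternatives, from -0.34 to -0.14.

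Other genes that fell have no common role. TENT5B, of a family of poly(A) polymerases, fell from 13.4, 15.6 and 10.8 to 3.54, 5.13 and 4.7 CPM (-1.57 ± 0.19, adjusted p = 0.00123 from edgeR). RBM14, an RNA-binding protein of paraspeckles, fell from 183, 148 and 180 to 97.1, 67.1 and 102 CPM (-0.94 ± 0.15, adjusted p = 0.0107 from edgeR), and a read-through transcript with its neighbour could share its reads. MAB21L4 fell from 80.5, 87.4 and 74.2 to 35.6, 42.7 and 40.7 CPM (-1.02 ± 0.15). KCNF1, a potassium channel subunit (-1.02 ± 0.16), NMU, the neuropeptide neuromedin U (-0.96 ± 0.19), IBA57 of mitochondrial iron-sulphur assembly (-0.82 ± 0.15) and VASN, a membrane protein that binds TGF-β (-0.79 ± 0.13), made up the rest of the largest 15. The 6 genes that fell outside the rule for names were POU3F1, SMAD7, DUSP14, PDE7A, DCPS and NRF1, named after their values were seen. In Vehicle, KCNF1 had a log2 fold change of -1.22, POU3F1 one of -1.71 and IBA57 one of -0.69. TENT5B (-0.915), DUSP14 (-0.494), VASN (-0.479), RBM14 (-0.336), DCPS (-0.276), SMAD7 (-0.231) and NRF1 (-0.22) were lower there too. With INSIG1, these genes were the 11 of the 21 that passed in Vehicle with the block. The difference between Ruc_High and Vehicle was not called for any of them.

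Across all genes called, the 21 that fell had a median of -0.90 in Ruc_High cells, -0.82 in Ruc_Low, -0.83 in Ruc_Total and -0.28 in Vehicle cells. The 24 that rose had a median of 0.81 in Ruc_High, 0.67 in Ruc_Low, 0.67 in Ruc_Total and 0.26 in Vehicle cells. With the block, 21 of the 21 and 19 of the 24 also passed in Ruc_Low, where 1.06% of all genes were lower and 1.43% higher. In Vehicle 11 and 7 passed, where the block gave 927 genes higher and 969 lower (4.6% and 4.81%), more than in Ruc_High cells, and 1 higher and 4 lower passed without it. Since the genes were chosen for their change in Ruc_High cells, a smaller median in the other groups is in part fixed by the choice.

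The change over time was not shown to differ between the 2 sorted gates. No gene passed in Ruc_High minus Ruc_Low (0% of 20136 with or without the block, 180 and 297 genes at an unadjusted p under 0.05 from edgeR, 1 higher and 1 lower with DESeq2). The mitotic lists had a median of -0.34 in Ruc_Low, with 73 of 77 genes below 0, as in Ruc_High. PLK1 went from 123, 166 and 193 to 46.3, 81.5 and 94.9 CPM in Ruc_Low cells, and MMP1 from 0.377, 0.384 and 0.77 to 2.03, 1.37 and 2.01 CPM. The difference of the changes was -0.02 ± 0.325 (SE) for PLK1 and 0.29 ± 0.345 for MMP1. Against Ruc_Total, too, no gene passed with or without the block (0% of 20136, 666 and 2068 genes at an unadjusted p under 0.05 from edgeR, 0 higher and 2 lower with DESeq2).

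The lysosomal genes that the study names as proteins were not called over time. LAMP1, a membrane protein of lysosomes, was at 243, 295 and 326 CPM at 2 h and at 241, 253 and 312 CPM at 24 h, and LAMP2 at 81.6, 104 and 132 against 94.7, 106 and 130 CPM. In both the replicates differed more than the times. CTSL (-0.21), APP (-0.04), SCARB2 (0.07) and ATP6V1F (0.06) were not called either, with adjusted p of 0.921 to 0.974 over the 6 genes from edgeR. In Vehicle, LAMP2 (0.33) and SCARB2 (0.34) were higher with the block (adjusted p = 0.0432 and 0.0348 from edgeR). LAMP1, CTSL, APP and ATP6V1F were not called in Vehicle. The difference between Ruc_High and Vehicle was not called for any of the 6. Of 47 lysosomal hydrolase and lumen genes, 27 lysosomal membrane genes and 21 V-ATPase genes none passed without the block, and their medians were -0.02, 0.04 and -0.10 (3, 2 and 1 genes at an unadjusted p under 0.05 from edgeR, and 1, 2 and 0 called by DESeq2). With the block LGMN, a lysosomal protease (-0.34), and LAPTM4B, a lysosomal membrane protein (-0.40), were lower, and in Vehicle they had values of -0.38 and -0.40. PARP1, the target of rucaparib, was at 27.9, 48.9 and 83 CPM at 2 h and at 43.5, 34.6 and 89.4 CPM at 24 h. Its replicates differed by more than the times, and its change was 0.07 ± 0.89 (adjusted p = 0.993 from edgeR). At both times they stood in the order of the mean transcript length of the samples, and a link was not tested. In Vehicle, PARP1 had a mean of 40.4 CPM at 2 h with an SD of 36.9 CPM. Its log2 change there was 6.98, 0.46 and 0.22 in replicates 1, 2 and 3, so its estimates varied widely between samples.

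**Figure D4:**
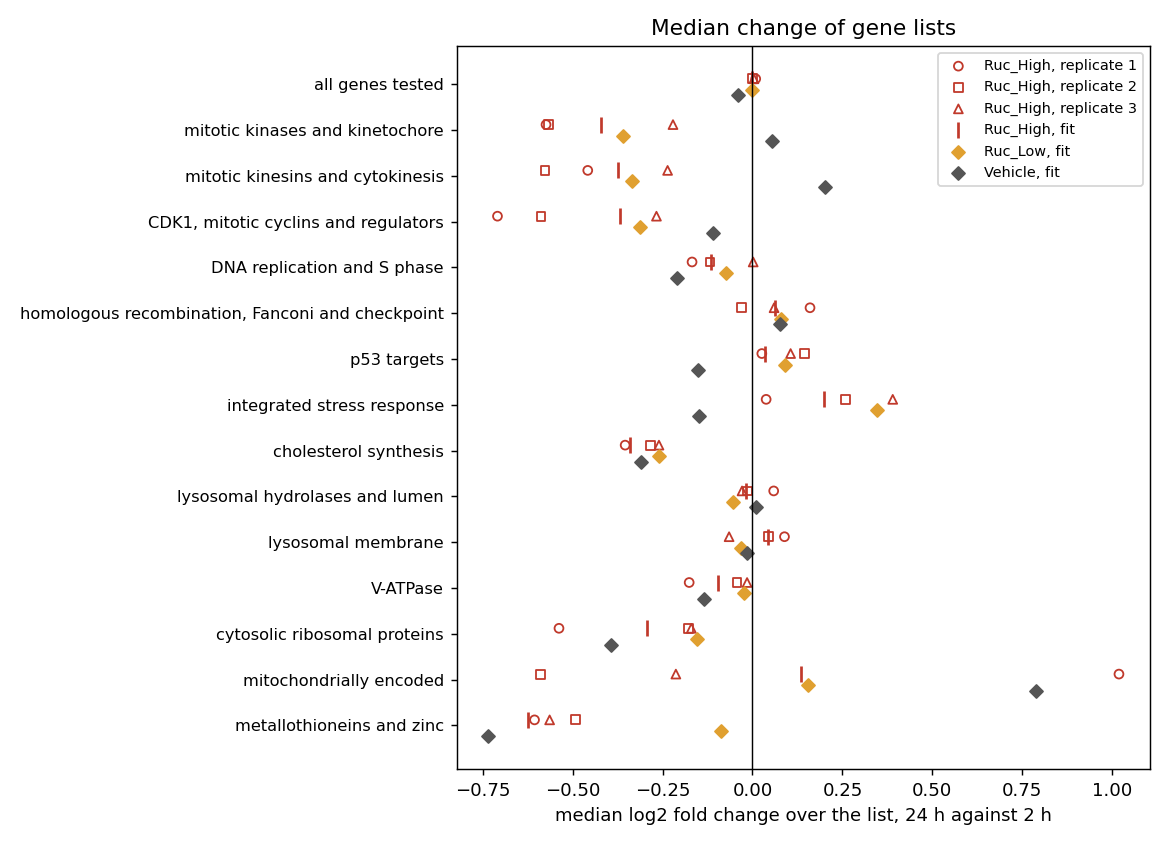
Median log2 fold change at 24 h against 2 h (horizontal axis) of 14 gene lists and of all genes (vertical axis), with open symbols for the 3 replicates of Ruc_High, a bar for its fit and diamonds for the fits in Ruc_Low and Vehicle. The mitotic lists lie below 0 in Ruc_High and Ruc_Low, cholesterol synthesis lies below 0 in all groups shown, and the mitochondrially encoded genes differ in sign between replicates.

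Some lists with sizeable medians had no call. The 77 cytosolic ribosomal protein genes all lay below 0, with a median of -0.29 in Ruc_High and -0.39 in Vehicle cells and none called with or without the block (6 at an unadjusted p under 0.05 from edgeR, 0 called by DESeq2). Within replicates 1, 2 and 3 the median was -0.54, -0.18 and -0.17, and the mean transcript length differed most between times in replicate 1. With that length as a covariate beside the block the median was -0.11. Whether length accounts for these values was not tested. The 13 mitochondrially encoded genes had medians of 1.02, -0.59 and -0.21 in replicates 1, 2 and 3, and their share of reads was 2.025%, 2.50% and 3.10% at 2 h and 4.13%, 1.77% and 2.81% at 24 h. Metallothioneins and zinc genes had a median of -0.62 in Ruc_High and -0.73 in Vehicle cells, with 0 of 11 called (2 at an unadjusted p under 0.05 from edgeR, 0 called by DESeq2).

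Single genes of other lists passed only with the block. PPP1R10, a regulatory subunit of protein phosphatase 1, was at 26.4, 30.2 and 37 CPM at 2 h and at 50.5, 45.3 and 50.8 CPM at 24 h (0.65 ± 0.17, adjusted p = 0.129, or 0.0171 with the block, from edgeR), while in Vehicle its change was 0.01. CBX2, a Polycomb subunit that binds methylated histone H3, was higher with the block (0.44), as were the drug efflux transporter ABCC3 (0.41), BCL2 (0.53) and TNFSF10, the death ligand TRAIL (1.01). In Vehicle the values of CBX2, ABCC3, BCL2 and TNFSF10 were -0.16, 0.03, 0.41 and 1.27, and TNFSF10 passed there with the block (adjusted p = 0.00658 from edgeR). AMOTL2, an inhibitor of YAP, went from 504, 467 and 530 to 370, 362 and 395 CPM (-0.41, adjusted p = 0.223, or 0.0142 with the block, from edgeR), and its change in Vehicle was -0.03. CA12, a carbonic anhydrase, was at 4.64, 7.26 and 11.7 CPM at 2 h and at 1.57, 3.29 and 4.88 CPM at 24 h. Its times overlapped, each replicate was lower at 24 h, and its log2 fold change of -1.28 passed with the block only (adjusted p = 0.412, or 8.34e-06 with the block, from edgeR). In Vehicle it was -0.59 and passed with the block as well (adjusted p = 0.0105 from edgeR).

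The remaining lists had no call without the block from edgeR, and their counts at an unadjusted p under 0.05 are to be read against 9.14% of all genes. The lowest medians were those of heat shock (-0.25, 5 of 14 genes at an unadjusted p under 0.05), AP-1 and early genes (-0.24, 4 of 28), YAP/TEAD targets (-0.21, 4 of 17), glycolysis and hypoxia (-0.18, 7 of 31) and NRF2 targets (-0.17, 4 of 22), and DESeq2 called 0, 1, 1, 1 and 1 gene of these. In Vehicle the same lists had medians of -0.33, -0.35, -0.12, -0.21 and -0.09. PARP enzymes and PARG had a median of 0.12, with 3 of 21 genes at an unadjusted p under 0.05 and none called by DESeq2. The interferon response list had none of 34 at an unadjusted p under 0.05, and medians of the lists not named here lay between -0.12 and 0.11.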

How the data were processed

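RNA from 72 libraries of PEO1 cells, 9 in each of 8 groups, was sequenced by the submitters. For each library the authors deposited estimated counts, TPM and effective lengths of transcripts from Salmon, whose version is not given in the sources used here. Their processing notes list GRCh38, cutadapt 4.7 and DESeq2 1.44.0 as well. Groups and replicate numbers came from the labels. Of 257369 transcripts, GENCODE release 29 gave a gene for 194437 and an HGNC table for 11676. The remaining 51256, with 7.1% to 8.95% of each library's reads, were not used.

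Libraries of a replicate number were treated as technical repeats, since the reporting summary of the study states this in general for imaging and sorting, with biological replicates made on separate days and technical ones in separate wells. The labels name no day, and the study's text does not describe these libraries. Among Ruc_High libraries of the same time, the only ones compared, no 2 agreed within sampling noise (lowest chi-square per degree of freedom 6.83 within a replicate, median 37.3, against 76.2 between replicates, for genes with 50 or more counts per pair). Estimated counts were summed over 3 libraries and rounded, and the 24 samples were fitted together with edgeR 4.0.16 (filterByExpr, TMM, quasi-likelihood test) in R 4.3.3. P-values were adjusted by Benjamini-Hochberg, with a threshold of 0.05. CPM are TMM-normalised, and standard errors are those of the fit. P-values measure the spread between the 3 samples within a group, estimated over all 24 samples and not over those of Ruc_High alone. The procedure was tested on simulated counts that held no replicate effect and no differences in transcript length. That test therefore cannot show how calls in the real data depend on these.

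The replicate block takes the replicate numbers to pair the samples, and the main fit does not use this pairing. Deviations from the group means of Ruc_High at 2 h and 24 h correlated with r of 0.537, 0.203 and 0.833 for replicates 1, 2 and 3, and of -0.739 to 0.516 between different numbers, the highest for replicate 1 at 2 h with replicate 2 at 24 h. Deviations within a group sum to 0. Positive values for the same number therefore push those between different numbers down, and the 2 ranges are not independent.

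Alternatives were the replicate block, alone or with mean transcript length as a covariate, only the groups compared, each replicate left out, DESeq2 1.42.0, its size factors in edgeR, other low-count filters, an offset for effective length, and limma 3.58.1 on log2(TPM + 1) of the deposited TPM. Fits without libraries under 2800 bases, and the block with a replicate left out, were added after seeing the data.

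The genes compared, the gene lists and the tests were chosen with earlier results of these data known. Of 44 lists, each was described by its calls in the fit over all genes and its median. Named genes were up to 15 per direction with the largest change among those called, with at least 5 CPM and the same direction in 3 replicates, up to 3 called members per list and direction, up to 5 per difference between groups, and genes the study names. Promoters are from RefSeq (GRCh38.p14), matched by symbol.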

Additional observations from a re-analysis of the deposited data

Results flagged for a closer look

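The change from 2 h to 24 h differed between Ruc_High and Vehicle cells for 7 genes with the replicate block, from edgeR. The difference on the log2 scale was -1.79 for KIF20A, -1.25 for PLK1, -1.24 for DEPDC1, -1.14 for GAS2L3, -0.74 for NCAPD2, 1.37 for SERPINB2 and 2.18 for MMP1, each in the same direction in 3 of 3 replicates. None of them passed without the block from edgeR. DESeq2, fitted without the block, called MMP1 (adjusted p = 7.18e-07), SERPINB2 (0.00123) and GAS2L3 (0.0461) and not the others. With the block from edgeR, none of the 7 passed when any replicate was left out. SERPINB2 did not pass with mean transcript length as a covariate beside the block (adjusted p = 0.0655 from edgeR).

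One Ruc_High library at 2 h, of replicate 2, held 29040832 estimated reads, the lowest of its 9 and far from the others. It was 1 of 16 ends of groups tested for reads, transcript length, mitochondrial share and genes detected, and chance gives such a gap in about 1 in 20 groups.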

How the results depend on the processing

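Counts of genes called moved widely with the model, given here as higher and lower at 24 h in Ruc_High cells against 24 and 21. The replicate block gave 312 and 254, with mean transcript length 399 and 385, and without libraries under 2800 bases 352 and 461 (30 and 48 without the block). DESeq2 gave 171 and 177, no filter 6 and 25, a filter of 5 CPM 36 and 38, an offset for effective length 3 and 3, log2(TPM + 1) 26 and 2, and only the groups compared 0 and 0. Leaving out a replicate gave 0 to 4 higher and 0 to 13 lower, or 0 to 78 and 2 to 101 with the block, and the lowest values were those without replicate 2, apart from the genes lower without the block, which were also 0 without replicate 3. DESeq2 size factors gave 24 and 25. The difference from Vehicle, 0 genes, became 7 with the replicate block, 11 with the block and length, 67 with the block and without libraries under 2800 bases, 0 to 2 with the block and a replicate left out, and 7 with DESeq2. The difference from Ruc_Low became 1 with the block and length and 2 with DESeq2, and that from Ruc_Total 2 with DESeq2. The causes were not tested. Of the 29 named genes called, 29 remained called with the block and with DESeq2, 5 with the offset, 6 on the log2(TPM + 1) scale, 7, 0 and 1 without replicates 1, 2 and 3 and 0 in the fit of only the groups compared, and none changed direction.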
